A study of Mus musculus with 6 samples.

Results

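The genes described here are the 4 Janus kinases (Jak1, Jak2, Jak3 and Tyk2) and 6 of their inhibitors (Socs1, Socs2, Socs3, Socs4, Socs6 and Cish), 10 of the 27458 genes of the deposited table, taken from it by gene symbol. They were measured by RNA sequencing in bone marrow macrophages, primary cells grown out of mouse marrow and treated with macrophage colony-stimulating factor (M-CSF). The KO group holds 3 libraries from RKIP-/- mice, which lack Raf kinase inhibitor protein, and the WT group 3 libraries from RKIP+/+ mice. Age, sex, strain and the way the allele was made are not given in the sources used here, nor whether the libraries of a group stand for different animals or cultures. The p-values therefore rest on library-to-library spread alone, which could be technical.

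Pebp1, the gene of RKIP, had a count of 0 in every KO library and 39.2, 33.2 and 39.0 FPKM (a read level scaled to the transcript's length and the library's total) in WT libraries 1, 2 and 3. Totals ran from 63607276 to 70059042 estimated counts in KO and from 53188659 to 55255365 in WT. All 9 macrophage markers examined passed the filter below. In KO 3 were higher and 4 lower, beside 20.3% and 19.4% of all tested genes. Csf1r, the M-CSF receptor, stood at 366 to 397 FPKM in KO and 296 to 300 FPKM in WT, and the lysozyme gene Lyz2 at 16555 to 16733 FPKM in KO and 18656 to 20141 FPKM in WT. Stromal markers were also present, with a summed level of 1331 to 1488 FPKM in KO and 1326 to 1461 FPKM in WT over 9 genes, most of it from Col1a1, Sparc, Col1a2, Col3a1 and Cxcl12. Neutrophil markers differed between the groups. The summed level of 14 of them was 15.9 to 18.4 FPKM in KO and 95.5 to 186 FPKM in WT, lowest in WT library 1, and none was at 0 in all libraries. Of the 10 tested, 9 were lower in KO. Csf3r, the G-CSF receptor, overlapped, at 8.93 to 9.96 FPKM in KO and 8.85 to 10.4 FPKM in WT. Elane and Mpo, which were scarce, overlapped too. In such bulk samples, fewer cells of a type and less RNA per cell cannot be told apart.

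Janus kinases are bound to the inner tails of cytokine receptors that have no kinase of their own. When a cytokine brings the receptor chains together, the kinases phosphorylate each other, the receptor and then the STAT transcription factors, which move to the nucleus. SOCS proteins and Cish close the loop: STATs induce several of their genes, and the proteins bind phosphotyrosine through an SH2 domain and carry a SOCS box, which recruits elongins and cullin 5 to mark targets for the proteasome. Socs1 and Socs3 can also block the kinase directly. In macrophages this pathway carries the signals of interferons, interleukins 4, 6 and 10 and GM-CSF, whereas the M-CSF receptor is itself a tyrosine kinase.

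The promoters of Socs3 and Cish, which are known STAT targets, are shown because they were the members whose promoter window held the STAT motif TTCNNNGAA, a palindrome that reads alike on both strands. Sequences are RefSeq's for GRCm38.p6, 250 bases before to 50 bases after the annotated start, with the motif in capitals. For both genes this start lies inside the gene span given further on, not at its edge. Positions count from the start of the promoter annotation alone. Socs3 lies on the minus strand at chr11:117969317-117969616 and Cish on the plus strand at chr9:107296409-107296708.
Socs3: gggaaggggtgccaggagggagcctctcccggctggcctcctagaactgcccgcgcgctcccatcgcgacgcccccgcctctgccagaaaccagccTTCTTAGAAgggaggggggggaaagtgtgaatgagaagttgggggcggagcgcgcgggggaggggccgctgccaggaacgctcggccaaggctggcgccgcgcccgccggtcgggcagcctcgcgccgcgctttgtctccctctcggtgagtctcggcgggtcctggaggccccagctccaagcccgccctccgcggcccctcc
Cish: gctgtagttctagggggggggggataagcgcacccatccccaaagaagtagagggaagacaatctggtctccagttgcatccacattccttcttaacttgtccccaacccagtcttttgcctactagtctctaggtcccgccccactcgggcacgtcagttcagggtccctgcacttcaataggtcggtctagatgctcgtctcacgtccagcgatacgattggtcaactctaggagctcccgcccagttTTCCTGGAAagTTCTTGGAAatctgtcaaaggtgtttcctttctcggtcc

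In Socs3 the motif began at position -154 from the start, and in Cish a pair of motifs began at positions 1 and 12. Of the 8 members in the promoter table, 2 held the motif and 1 held it more than once. Among all 32851 promoters of that length, 8.30% held it at least once and 0.457% at least 2 times. In the last 200 bases before the start the shares were 1 of 8 members and 5.49% of all promoters. A match in these letters is a description of the window, not a site of binding. Socs2 and Socs6 had no entry in the table.

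Against WT, the KO macrophages had more RNA of Jak1, Jak2, Socs4 and Socs6 and less of Socs3. The calls of Jak2 and Socs4 ended with a correction for length and GC content, described further on. Of the 7 members with a mean of at least 1 FPKM, which were tested, 4 were higher and 1 lower in KO at an adjusted p under 0.05 (edgeR quasi-likelihood test). Over all 11636 tested genes, 20.3% were called higher and 19.4% lower, 39.7% in all. That balance moved with the method, with 2364 higher and 2253 lower here, 1913 and 2880 with upper quartile scaling, and 2760 and 1589 in limma on log2(FPKM + 1). The largest of these changes was 1.39-fold, for Socs6. The median log2 fold change of the tested members was 0.16, beside -0.01 over all tested genes. With the length and GC correction these medians were 0.07 and 0.01. In all 7 the FPKM values of the KO and WT libraries did not overlap, which was so for 51.5% of tested genes. Socs1, Socs2 and Cish lay under the filter and are described from a fit without it.

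**Figure D1:**
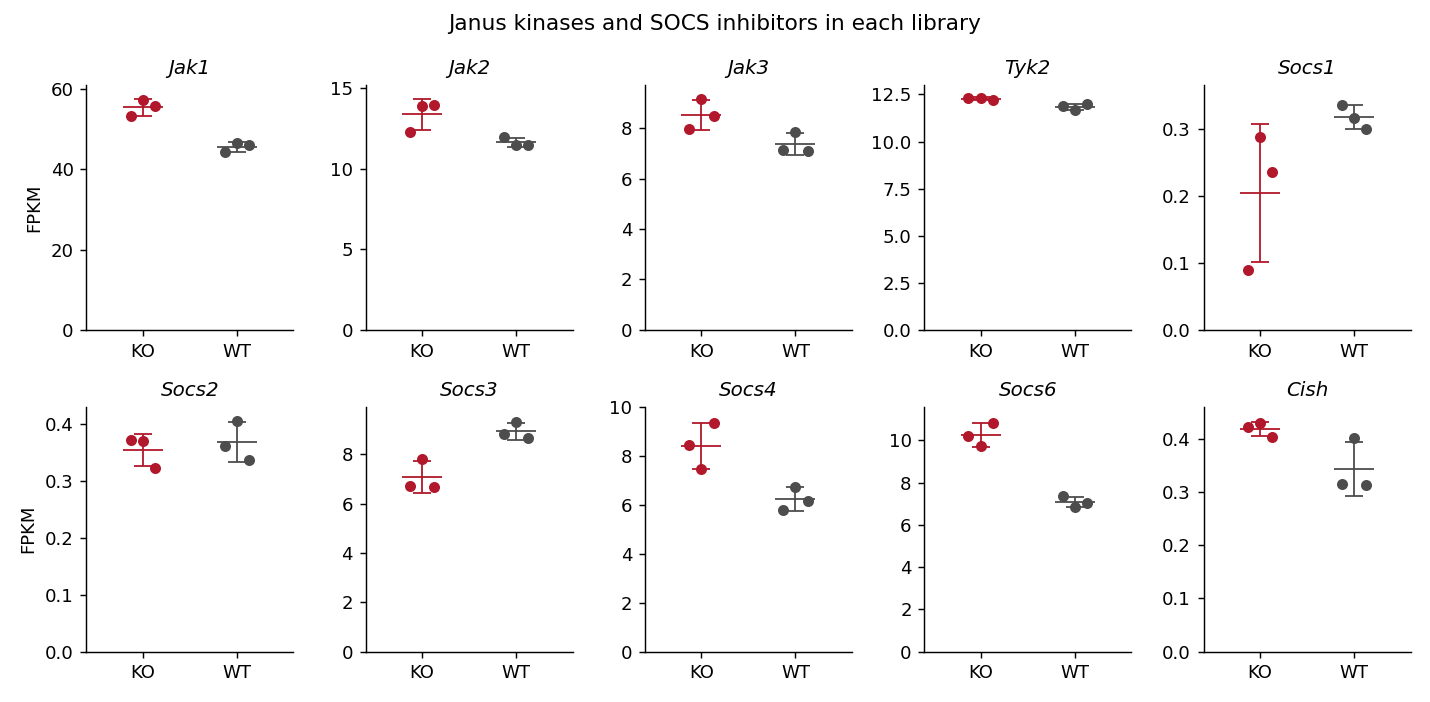
FPKM of the 10 genes in each library (points), KO left and WT right, with the mean (line) and SD (bars) of 3 libraries per group; each panel has its own axis from 0. Jak1, Socs4 and Socs6 sit higher in all KO libraries and Socs3 lower, while Socs1, Socs2 and Cish stay under 0.5 FPKM throughout.

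Among the kinases, Jak1 was the most abundant and had the clearest rise. Jak1 (chr4:101152367-101265282, minus strand) works with the receptors of interferons and of the interleukin 6 family. Its level was 53.2, 57.2 and 55.8 FPKM in KO libraries 1, 2 and 3, and 44.2, 46.5 and 46.1 FPKM in WT libraries 1, 2 and 3. Every KO library exceeded every WT library by more than the spread inside either group, and Jak1 rose 1.17-fold (log2 fold change 0.23 ± 0.04 standard error, edgeR, adjusted p = 0.00120). Here and below the fold comes from the edgeR scaling of counts, which is not the ratio of the FPKM means.

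Jak2 (chr19:29251828-29313080, plus strand), which serves the GM-CSF, erythropoietin and growth hormone receptors and the interferon gamma receptor, changed less. It had 12.3, 13.9 and 14.0 FPKM in the KO libraries, against 12.0, 11.5 and 11.5 FPKM in the WT libraries. KO library 1 lay close to WT library 1, and the other KO libraries stood clear of all WT libraries. The rise of 1.11-fold was just past the threshold (log2 fold change 0.14 ± 0.05, edgeR, adjusted p = 0.0417). With the correction for length and GC content described further on, the log2 fold change was 0.02 (edgeR, adjusted p = 0.760). The call held in 9 of 21 alternatives and also ended without KO library 2 (adjusted p = 0.116), KO library 3 (0.141), WT library 2 (0.119) or WT library 3 (0.0961).

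Jak3 (chr8:71676296-71690575, plus strand), which pairs with the common gamma chain of lymphoid cytokine receptors, had 7.95, 9.14 and 8.49 FPKM in KO and 7.15, 7.86 and 7.08 FPKM in WT. The lowest KO and the highest WT library differed by little. Insl3 overlaps Jak3 on the same strand over 1362 bp and was listed at 0.148 FPKM in KO and 0.102 FPKM in WT (means of 3), so reads of that stretch are uncertain. The log2 fold change of 0.16 ± 0.06 did not pass (edgeR, adjusted p = 0.0644), and it passed without WT library 2 (adjusted p = 0.0380). T and NK cells are known for high Jak3. The summed level of the 9 of their markers measured was 8.99 to 9.44 FPKM in KO and 6.89 to 7.38 FPKM in WT. Cd28 and Il7r carried that difference, whereas Cd4 overlapped between the groups, at 1.26 to 1.48 FPKM in KO and 1.30 to 1.67 FPKM in WT. Cd3d, Cd3g and Cd8a were at 0 in every KO library, and these 3, Zap70 and Klrb1c were under 0.1 FPKM in all 6 libraries. Their part in the Jak3 value was not tested.

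Tyk2 (chr9:21104068-21131243, minus strand), the partner of Jak1 at the receptors of type I interferons and interleukin 10, had 12.3, 12.3 and 12.2 FPKM in KO and 11.9, 11.7 and 12.0 FPKM in WT. These values differed by little and did not overlap, yet after the scaling of edgeR no difference was left (log2 fold change -0.00 ± 0.04, adjusted p = 0.969). An annotated antisense gene, 1700084C06Rik, overlaps Tyk2 and was not analysed here. Whether the counting used the strand is not given in the sources used here.

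The kinases kept one order for the first and last place. In each of the 6 libraries Jak1 was first and Jak3 last, while Jak2 and Tyk2 changed places between libraries, with ranges that overlapped in both groups. Summed FPKM of the 4 kinases was 89.6 ± 3.51 in KO and 76.5 ± 1.15 in WT (SD, n = 3 each). Jak1 made up 61.9 ± 0.17% of that sum in KO and 59.7 ± 0.75% in WT, and Tyk2 13.7 ± 0.56% in KO and 15.5 ± 0.39% in WT. The shares of Jak2 and Jak3 overlapped between the groups.

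**Figure D2:**
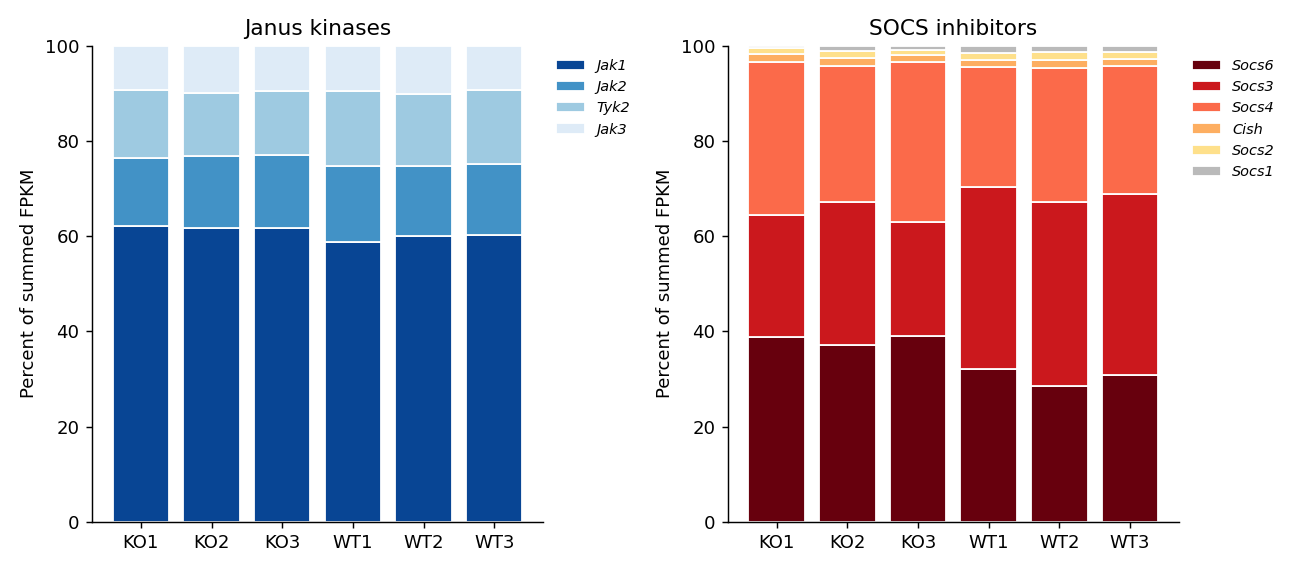
Share of each gene in the summed FPKM of the 4 Janus kinases (left) and of the 6 inhibitors (right) in each library, KO libraries first. Jak1 takes about 60% in every library, and Socs3 takes 24.0 to 30.0% in KO and 37.9 to 38.7% in WT.

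Of the inhibitors that act on the kinase itself, Socs3 fell. Socs3 (chr11:117966079-117970047, minus strand) restrains signals through gp130, the shared chain of the interleukin 6 receptors, and through the G-CSF receptor. It had 6.73, 7.83 and 6.67 FPKM in KO libraries 1, 2 and 3, and 8.82, 9.31 and 8.65 FPKM in the WT libraries. All KO libraries were lower than all WT libraries, with KO library 2 nearest to them. The fall was 1.31-fold (log2 fold change -0.39 ± 0.08, edgeR, adjusted p = 0.00185). Csf3r was not called, while the summed level of the neutrophil markers fell with Socs3, as given above. Within WT, Socs3 was 8.82, 9.31 and 8.65 FPKM in libraries 1, 2 and 3, where their sum was 95.5, 179 and 186 FPKM. Their part in the fall was not tested.

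Socs1 (chr16:10782240-10785536, minus strand), the main brake on interferon gamma signalling, was scarce, with 19, 61 and 51 estimated counts in KO and 61, 57 and 54 in WT. About 4 counts stand for 1 sequenced fragment, so these are few fragments. In FPKM it was 0.0893, 0.288 and 0.236 in KO and 0.336, 0.316 and 0.301 in WT. KO library 1 stood apart from the others. The log2 fold change without the filter was -0.67 ± 0.40 (edgeR, adjusted p = 0.346), and -0.34 without KO library 1 (adjusted p = 0.453), so no difference was detectable at this depth.

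Cish (chr9:107296026-107302784, plus strand) and Socs2 (chr10:95385362-95417180, minus strand), which act at the receptor and are often used as readouts of STAT5, were also low. Cish had 0.422, 0.428 and 0.402 FPKM in KO and 0.315, 0.401 and 0.313 FPKM in WT. WT library 2 was almost level with KO library 3, and the log2 fold change without the filter was 0.25 ± 0.16 (edgeR, adjusted p = 0.382). Socs2 had 0.371, 0.371 and 0.322 FPKM in KO and 0.361, 0.405 and 0.337 FPKM in WT, with overlap between the groups (log2 fold change -0.09 ± 0.14, edgeR without the filter, adjusted p = 0.745). The pseudogenes Gm8000 and Gm9847 match Socs2 over their whole length, so its reads are uncertain. An annotated antisense gene, Gm17041, overlaps Cish and was not analysed here.

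Socs6 had the largest change of the tested members. Socs6 (chr18:88665224-88894352, minus strand) is known to bind receptor tyrosine kinases such as Kit and Flt3. Its level was 10.2, 9.71 and 10.8 FPKM in KO libraries 1, 2 and 3, and 7.36, 6.86 and 7.06 FPKM in the WT libraries. The groups were far apart for their spread, and Socs6 rose 1.39-fold (log2 fold change 0.48 ± 0.05, edgeR, adjusted p = 2.89e-05), more than 96.3% of tested genes. With the length and GC correction its log2 fold change was 0.22 (edgeR, adjusted p = 0.000614). A pseudogene, Gm9449, matches Socs6 over 99.4% of its own length and was listed at 2.32 FPKM in KO and 2.09 FPKM in WT (means of 3), so the share of reads between them is uncertain.

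Socs4 (chr14:47276931-47296102, plus strand), a relative known for its action on the EGF receptor, had 8.43, 7.47 and 9.35 FPKM in KO and 5.79, 6.74 and 6.18 FPKM in WT. KO library 2 was the nearest to WT, and the spread was wider in KO. Socs4 rose 1.30-fold (log2 fold change 0.38 ± 0.08, edgeR, adjusted p = 0.00305), a call that ended with the length and GC correction (0.07, adjusted p = 0.458). Of the family genes outside the 10, Socs5 stood at 7.87 ± 0.45 FPKM in KO and 6.96 ± 0.32 FPKM in WT (SD, n = 3 each; log2 fold change 0.12, edgeR, adjusted p = 0.0989). Socs7 stood at 3.50 ± 0.15 FPKM in KO and 3.11 ± 0.20 FPKM in WT (log2 fold change 0.12, edgeR, adjusted p = 0.207). Neither passed.

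The order of the inhibitors differed between the groups. Socs6 was the most abundant of the 6 in each KO library, and Socs3 in each WT library. The Socs3 level was 0.659, 0.806 and 0.615 times that of Socs6 in KO libraries 1, 2 and 3, and 1.20, 1.36 and 1.23 times in the WT libraries. Against Jak1, Socs3 stood at a ratio of 0.128 ± 0.009 in KO and 0.196 ± 0.007 in WT (SD, n = 3 each). Summed FPKM of the 6 inhibitors was nonetheless higher in KO, 26.7 ± 0.96 against 23.3 ± 0.65 in WT. Socs6 held 38.4 ± 0.99% of the sum in KO and 30.5 ± 1.78% in WT, and Socs3 held 26.5 ± 3.11% in KO and 38.3 ± 0.43% in WT. Sums, ratios and shares, here and for the kinases, are descriptions with no test, since they follow from the levels above. They carry no correction for length and GC content. With that correction the edgeR log2 fold change was 0.07 for Socs4, 0.22 for Socs6 and -0.32 for Socs3. Whether the higher sum in KO holds with it was not tested.

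Changes between the genotypes followed transcript length across the whole table, and these genes differ in length. With the tested genes in 10 classes by length, the median log2 fold change was -0.32 in the shortest class and 0.20 in the longest. Socs4, at 6877 bp, lies in that longest class, and Socs6, at 6036 bp, in the next one, where the median was 0.13. Jak1, Jak2 and Tyk2, at 4906, 5030 and 4828 bp, share a class with a median of 0.07, and Socs3, at 2552 bp, is in one with -0.06. In a fit with an offset for each library's dependence on length and GC content, Jak1 at 0.15 (edgeR, adjusted p = 0.00476), Socs6 at 0.22 (0.000614) and Socs3 at -0.32 (0.00310) still passed. Socs4 at 0.07 (0.458) and Jak2 at 0.02 (0.760) no longer did, and Jak3 at 0.15 (0.0403) now passed. By this count 3 members were higher and 1 lower, with 16.8% of all tested genes higher and 14.9% lower, 31.7% in all.

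**Figure D3:**
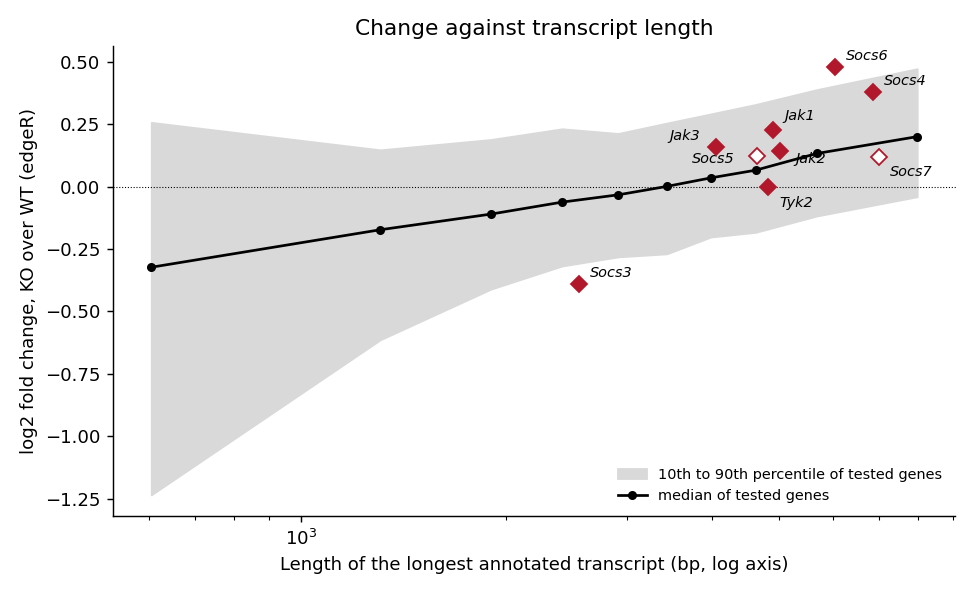
Log2 fold change of KO over WT (edgeR) against the length of the longest annotated transcript, on a log axis; the line joins the medians of 10 length classes of all tested genes at their median length, and the band spans their 10th to 90th percentiles. Red diamonds are tested members and open diamonds Socs5 and Socs7: Socs4 (0.38) and Socs6 (0.48) lie above the rising line, Socs3 (-0.39) under it.

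**Figure D4:**
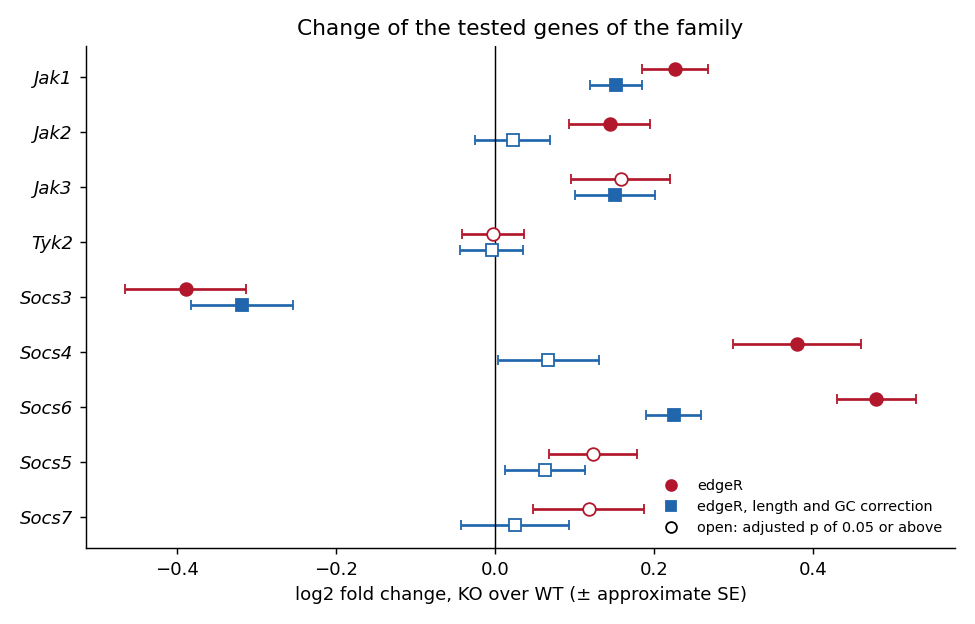
Log2 fold change of KO over WT with its approximate standard error, without (red circles) and with (blue squares) the length and GC correction; filled symbols passed at an adjusted p under 0.05. With the correction Socs4 is at 0.07 and Socs6 at 0.22, against 0.38 and 0.48 without it, and Socs3 is at -0.32.

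Around these genes, more receptor chains that signal through Janus kinases rose than fell. Of 25 tested, 8 rose and 3 fell (median log2 fold change 0.11). Lifr, the leukemia inhibitory factor receptor, rose 1.65-fold, with 5.92 ± 0.46 FPKM in KO and 3.46 ± 0.15 FPKM in WT (edgeR, adjusted p = 7.14e-06). Il6ra, the interleukin 6 receptor, rose 1.31-fold, with 22.9 ± 0.25 FPKM in KO and 16.8 ± 0.16 FPKM in WT. Chains of the GM-CSF and interleukin 3 receptors split: Csf2ra, which binds the cytokine, fell 1.28-fold, whereas Csf2rb2, which in the mouse serves interleukin 3, rose 1.24-fold. Csf2rb was also higher (log2 fold change 0.21, edgeR, adjusted p = 0.00434), and Il3ra was not called. Both are named after their values were seen. Il2rg, the common gamma chain that binds Jak3, fell 1.26-fold, with 17.2 ± 0.35 FPKM in KO and 20.8 ± 1.15 FPKM in WT. With the length and GC correction all called chains named here still passed. With it 8 chains were higher and 3 lower, beside 16.8% and 14.9% of all tested genes. Log2 fold changes were smaller with it for Lifr (0.46, against 0.72 without it), Il6ra (0.24, against 0.39) and Il2rg (-0.15, against -0.33). The 5 tested cytokines that use these receptors had adjusted p from 0.0972 to 0.915 (edgeR). With the correction Ebi3, a subunit of interleukin 27, and Il4 were higher, at log2 fold changes of 0.36 and 0.64; they are named after their values were seen.

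Of the STAT genes, Stat2, which carries type I interferon signals, had 13.7 ± 0.73 FPKM in KO and 14.9 ± 0.64 FPKM in WT (SD, n = 3 each), with overlap between the groups. It fell 1.13-fold (log2 fold change -0.18, edgeR, adjusted p = 0.0136). It did not pass in limma on log2(FPKM + 1), at an adjusted p of 0.136, and its call also ended without KO library 3 (0.0516) or WT library 1 (0.0544). Stat5b, a STAT of GM-CSF and growth hormone signals, rose 1.09-fold (adjusted p = 0.0414), and its call ended with the length and GC correction (0.180) and without any 1 of the 6 libraries (0.0506 to 0.161).

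Genes known as STAT targets in myeloid cells fell more often than they rose. Of 30 tested, 13 fell and 4 rose, 43.3% and 13.3%, beside 19.4% lower and 20.3% higher over all tested genes. Their median log2 fold change was -0.08, against -0.01 over all tested genes. With the length and GC correction 12 were lower and 4 higher. The median was then -0.01, against 0.01 over all tested genes. The summed neutrophil markers fell in the same comparison, and their part in these counts was not tested. Isg15, an interferon-induced ubiquitin-like modifier, fell 2.13-fold, with 10.4 ± 2.05 FPKM in KO and 21.3 ± 3.96 FPKM in WT. Junb, an AP-1 subunit, fell 1.33-fold and Bcl2l1, an inhibitor of apoptosis, fell 1.27-fold, while Mrc1, the mannose receptor, rose 1.47-fold. Usp18, which removes Isg15 and blocks the type I interferon receptor, fell 2.02-fold, with 2.53 ± 0.44 FPKM in KO and 4.92 ± 0.78 FPKM in WT. The highest adjusted p of these 5 was 0.000301, for Isg15 (edgeR), whose log2 fold change was -0.70 with the length and GC correction, against -1.09 without it.

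Genes outside the SOCS family listed as regulators of Janus kinase signalling, Usp18 included, went both ways. Of 18 tested, 6 rose and 3 fell, 33.3% and 16.7%, beside 20.3% and 19.4% of all tested genes. With the length and GC correction 3 were higher and 3 lower. Cbl, a ubiquitin ligase of activated tyrosine kinases, rose 1.35-fold, with 26.6 ± 1.06 FPKM in KO and 19.0 ± 0.74 FPKM in WT, and its log2 fold change was 0.20 with the correction, against 0.44 without it. Sh2b3, the adaptor also called Lnk, rose 1.16-fold, and its relative Sh2b2 fell 1.36-fold. Ptprc, the phosphatase CD45, rose 1.19-fold, and its log2 fold change was 0.00 with the length and GC correction (edgeR, adjusted p = 0.968).

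Partners of the SOCS box were called in both directions. Of 7 elongin and cullin 5 genes tested, 1 rose and 2 fell, 14.3% and 28.6%. Over all tested genes the shares were 20.3% higher and 19.4% lower. Cul5, the scaffold, rose 1.17-fold, and Elob (elongin B) and Nedd8, the modifier that activates cullins, fell 1.30-fold and 1.35-fold. None of the 3 passed with the length and GC correction, and Cul5 changed sign (-0.044, edgeR, adjusted p = 0.609). Eloc (elongin C) and Ube2f, a Nedd8-conjugating enzyme, which are named after their values were seen, were lower with it, at -0.25 and -0.20. Elob and Nedd8 have short transcripts, of 581 and 824 bp. Of 8 other SOCS box genes, Socs5 and Socs7 among them, Wsb1 rose 1.15-fold and Asb4 fell 1.70-fold. The call of Wsb1 ended without KO library 3 (edgeR, adjusted p = 0.0790), WT library 2 (0.0724) or WT library 3 (0.0783).

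In the deposited annotation, 119 further genes carry the KEGG term for Jak-STAT signalling. Of the 78 tested, 23 were higher and 11 lower, 29.5% and 14.1%, beside 20.3% and 19.4% of all tested genes. Their median log2 fold change was 0.06, against -0.01 over all tested genes. After the correction for length and GC, 18 were higher and 13 lower, and the median was 0.04.

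**Figure D5:**
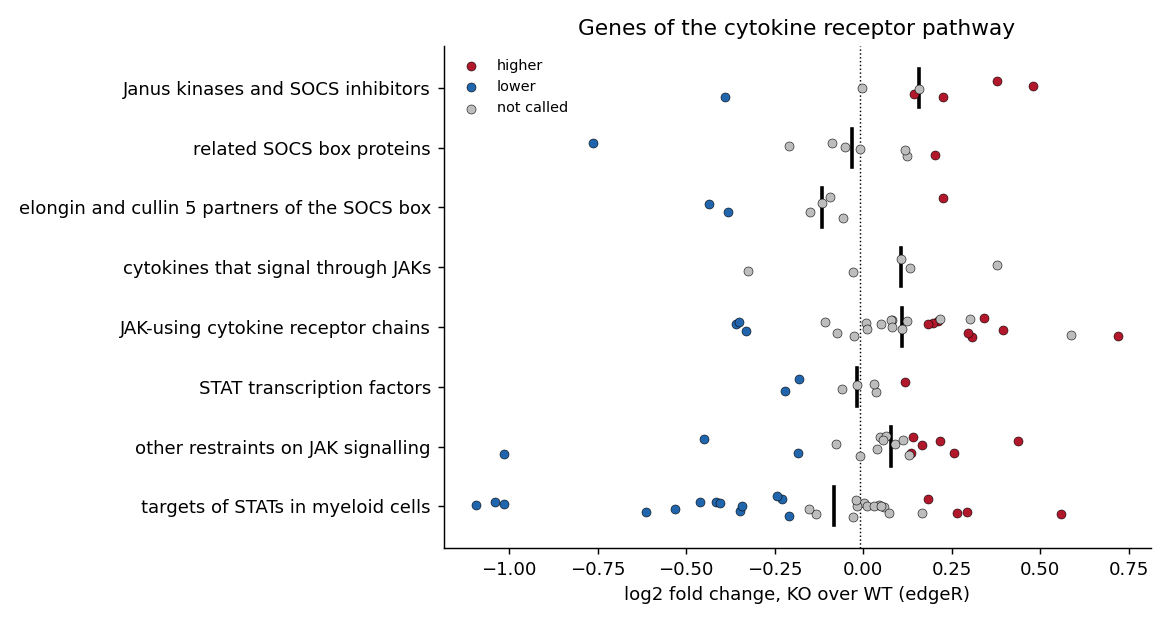
Log2 fold change of KO over WT (edgeR) for each tested gene of the 10 and of 7 lists of the same pathway, coloured by call (red higher, blue lower, grey not called); thick bars are list medians and the dotted line the median of all tested genes (-0.01). Blue points are most frequent among STAT targets, where 13 of 30 fell, beside 19.4% of all tested genes.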

How the data were processed

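Libraries were made from oligo(dT)-selected RNA with dUTP, per the labels' protocols. The submitters' processing notes name StringTie 1.3.4d, HISAT2 2.0.4 and cutadapt 1.9 without their roles. The genome build is not given in the sources used here; coordinates of 24732 of 27458 genes equal those of GENCODE M21 (GRCm38). The authors deposited FPKM and an estimated count per gene and library, given as whole numbers. Among deposited estimated counts the value 4 occurred 5769 times, against 3204 for 3 and 2041 for 5, so about 4 counts stand for 1 fragment. All columns of per-sample values were used. Totals of 53188659 to 70059042 estimated counts set the precision; the sources give no other depth.

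KO was compared with WT by edgeR 4.0.16 in R 4.3.3 (quasi-likelihood test, two-sided, TMM scaling) on the estimated counts of the 11636 genes that averaged 1 FPKM or more, with Benjamini-Hochberg adjustment over all of them and a threshold of 0.05. Standard errors are approximate, worked back from the F statistic. In the length and GC correction, each library's loess trend (span 0.3) on the length and GC content of the longest GENCODE transcript entered as an offset. Pseudogenes were matched to the members with minimap2 2.31. On simulated counts for these 11636 genes, 27 of 50 rises of 1.25-fold and 49 of 50 rises of 2-fold were recovered. Of falls, 24 of 50 to 0.8 times and 46 of 50 to 0.5 times the level were recovered. Of 11436 unchanged genes, 15 were called. Far fewer genes were changed there than were called in the data, and no length trend was simulated, so these rates need not hold for the data. Alternatives used limma 3.58.1 on log2(FPKM + 1), log2(FPKM + 0.5) and log2(FPKM + 0.1), DESeq2 1.42.0, other scalings and filters, a replicate block, counts divided by 4, a robust spread and each library left out. Tables were made with Python 3.11.15 and pandas 2.3.3.

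The members and gene lists were chosen with earlier results of these data known, so lists are given by counts and medians without a test. Genes named are the 10 members, Pebp1, Socs5, Socs7 and, from each list, up to 5 called genes with the smallest p, plus genes that overlap a member and markers given beside a result; 1 such gene is not reported here. A fit without the filter gives Socs1, Socs2 and Cish.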

Additional observations from a re-analysis of the deposited data

How the results depend on the processing

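Jak1, Socs6 and Socs3 kept their direction and stayed past the threshold in all 21 alternatives, with log2 fold changes from 0.15 to 0.28, 0.22 to 0.53 and -0.46 to -0.30. Socs4 passed in 19 of 21 and Jak2 in 9 of 21; Jak3 passed in 4 of 21. The count of higher members was 2 with the length and GC correction together with the replicate block, and 3 to 4 with any 1 library left out; 1 member was lower in every alternative. Tyk2, never called, changed sign in limma (0.047, 0.049 and 0.051 with pseudocounts of 1, 0.5 and 0.1), DESeq2 (0.0010), median-ratio scaling (0.0010) and no filter (0.018), and ran from -0.015 to 0.010 with libraries left out. Cul5 was -0.044 with the length and GC correction, alone or with the replicate block. Genes lower in KO numbered 2253, and 1500 in limma on log2(FPKM + 0.1). Of the other KEGG Jak-STAT genes, 15 were higher with upper quartile scaling and with a mean of at least 5 FPKM, and 5 were lower in limma with each pseudocount. Limma raised the share of higher calls, with 2760 higher and 1589 lower at log2(FPKM + 1), against 2364 and 2253 in edgeR; upper quartile scaling lowered it, to 1913 against 2880. The cause was not tested. Deviations of same-numbered libraries correlated at r = 0.02, 0.19 and -0.04 across genes, and those of differently numbered ones at -0.17 to 0.16. These values show no clear pairing by number, and with 3 libraries per group they cannot exclude one. With the replicate block 2407 genes were higher and 2294 lower, and 5 members were higher, Jak3 added (edgeR, adjusted p = 0.0396). Of the 3 members under the filter, none passed in any of 10 alternatives, run without the filter and chosen after seeing the data except filterByExpr. At 19 to 61 counts for Socs1, depth limits what can be seen.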
